A study of Homo sapiens with 14 samples.

Results

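The regions described here are peaks of ZNF143 ChIP-seq that were called both before and after depletion of ZNF143 but whose highest point lay elsewhere afterwards. ChIP-seq was performed in HEK293T cells, an established human embryonic kidney line, with the polyclonal anti-ZNF143 antibody of Proteintech. All samples came from 1 clone (HEK_CloneZD29) in which ZNF143 carries the FKBP12F36V degron tag, so that untreated cells also express the tagged protein. One list of peaks came from 4 untreated samples and another from 4 samples that had received dTAG-V1, a small molecule that directs the tagged protein to degradation, at 0.5 µM over 30 min. The loss of the protein itself was not measured in these files, and the CTCF ChIP-seq of the same series (3 samples per condition) was not analysed here.

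Each list pools its samples and gives no value per replicate, so that no test between conditions and no spread between replicates could be computed, and the sequencing depth is unknown. There were 20429 peaks without treatment and 35287 after dTAG-V1, in hg38 coordinates. Of these, 14563 pairs consisted of 1 peak from each list that overlapped each other by at least 1 bp and no other peak. In 3079 of these pairs (21.1%), the summit, the position of the highest signal in a peak, differed by 100 bp or more between the lists. These are called moved pairs, and they were chosen by the measured summit positions alone. They are compared with the 6098 unmoved pairs, whose summits lay at most 20 bp apart. The sequence within 50 bp of such summits is nearly the same, so that near-equal shares at both summits of unmoved pairs follow from the rule. Intervals below are 95% intervals and cover counting error only, because overlapping or neighbouring regions and the samples behind a list are shared.

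ZNF143 is a zinc-finger transcription factor that recognises the Staf binding site (SBS), found mainly in promoters close to the transcription start site (TSS). The SBS is usually described in 2 forms, SBS1 and SBS2, that share a core and differ in the letters around it. CTCF is a different zinc-finger protein with a long motif of its own, known for its role at chromatin loop anchors and boundaries. The authors of these data report that the Proteintech antibody cross-reacts with CTCF, and that its signal at CTCF sites persisted once ZNF143 was depleted. A peak in these lists therefore need not mark bound ZNF143, and the part of CTCF in the moved summits was not tested. The summit of a ChIP-seq peak normally lies on or near the bound site, which makes the sequence under it informative about what was precipitated. The comparison therefore asks which sequence lay under each summit of a moved pair.

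In moved pairs the SBS lay more often at the untreated summit and the CTCF motif more often at the dTAG-V1 summit. A pair with both features, an SBS and no CTCF motif within 50 bp of the untreated summit and a CTCF motif and no SBS within 50 bp of the dTAG-V1 summit, is called SBS-to-CTCF. The sites of 5 such pairs are shown because they place both motifs within 1 shared region. All are written 5′ to 3′ on the strand of the motif, from hg38, with the matched motif in capitals and 5 bases on either side in lower case.
ZNF843 SBS: tccagCTCCCAGGGTCCCTTGCGgggac
ZNF843 CTCF: tcctcCCGCCCCTAGGGGTCGCCGtcgcg
UBR2 SBS: aggaaTTCCCAGAAGGCTCCGGTcatca
UBR2 CTCF: gccggGAGCCTGCAGGGGGCGCCCttgcc
BTRC SBS: aacatTACCCAGAATGCATTGTGatttt
BTRC CTCF: tactaTTGCCACTAGAGGGAGAAGtgtct
MDFI SBS: ctacaTACCCAGCATGCAGCGCTtcctg
MDFI CTCF: gccgaTGGTCAGCAGAGGGCGCTTtaaac
PGF SBS: ggaaaTTCCCAGAATGCACCCTGgaagg
PGF CTCF: cactgAGGCCACTAGGGGGTAGCAtggag

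The sites lie on chr16:31442819-31442846 and chr16:31443186-31443214 for ZNF843, and on chr6:42547478-42547505 and chr6:42547751-42547779 for UBR2. For BTRC they lie on chr10:101467732-101467759 and chr10:101467474-101467502. For MDFI they lie on chr6:41602929-41602956 and chr6:41603228-41603256, and for PGF on chr14:74946756-74946783 and chr14:74946522-74946550. The gene names are those whose promoter or TSS is nearest to the untreated summit. The ZNF843 pair lay upstream of the gene, with the untreated summit 47 bp upstream of a TSS. The BTRC pair lay in intron 3 and the PGF pair in intron 4 of these genes, and the UBR2 and MDFI pairs lay between genes.

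The shortest of the named SBS-to-CTCF regions is shown whole, since it holds both sites in a single stretch. It lies on chr21:30409060-30409192 between genes, 13148 bp downstream of the TSS of KRTAP13-1, a hair keratin-associated protein gene, and is written on the forward strand. The first capitals are the CTCF site at the dTAG-V1 summit and the second the SBS at the untreated summit.
KRTAP13-1 region: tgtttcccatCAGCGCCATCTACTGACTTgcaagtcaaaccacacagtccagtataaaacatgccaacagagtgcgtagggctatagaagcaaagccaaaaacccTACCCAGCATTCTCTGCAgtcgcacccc

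For contrast, the unmoved pair with the highest untreated score that had an SBS and no CTCF motif at both summits lay at the promoter of FEM1A, a substrate receptor of a ubiquitin ligase. Its best SBS, on chr19:4791548-4791577, is written on the forward strand. The 2 summits of that pair lay 13 bp apart.
FEM1A SBS: ctggaACGCCAATTCCCACCATGCCgcgcg

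Summit distances fell off smoothly and had no gap at the threshold. Of the 14563 pairs, 6098 (41.9%) lay within 20 bp, 3344 at 21 to 50 bp, 2042 at 51 to 99 bp, 1437 at 100 bp to under 200 bp and 1642 at 200 bp or more. Within the moved pairs the median distance was 211 bp (quartiles 142 and 327 bp, longest 1740 bp). At exactly 100 bp there were 31 pairs, with a median score of 217 in the untreated and 97.0 in the dTAG-V1 list, and at 99 bp, just outside, 22 pairs with median scores of 168 and 112. The score is the integer the peak caller gives, close to 10 times the −log10 of the q-value. The dTAG-V1 summit lay at the higher coordinate in 48.3% of moved pairs (46.5 to 50.1%). The share of pairs that moved ranged from 17.6% to 25.8% over the 23 chromosomes.

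**Figure D1:**
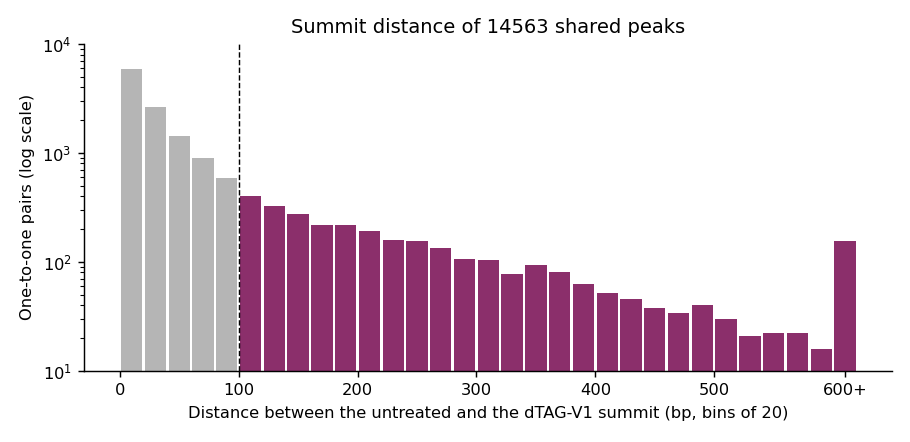
Number of one-to-one pairs (log scale) by the distance between the untreated and the dTAG-V1 summit, in bins of 20 bp with the last bar holding all pairs from 600 bp on. The 3079 moved pairs are the purple bars to the right of the dashed line at 100 bp, where counts continue to fall without a break.

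The overlap of the 2 peaks was large even where the summits were not. The overlap covered a median of 98.2% of the narrower peak in moved pairs, and in 1853 of them (60.2%) each summit lay inside the other peak. The median width of moved pairs was 457 bp in the untreated and 582 bp in the dTAG-V1 list, and that of unmoved pairs 492 bp and 566 bp. The dTAG-V1 peak was the wider of the 2 in 69.0% of moved and 69.9% of unmoved pairs. Width is tied to the rule, since distant summits need a wide region, and is given as a description only.

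Moved pairs were mostly weak peaks. Their median score was 97.0 in the untreated and 99 in the dTAG-V1 list, against 478 and 374 for unmoved pairs, and their median fold enrichment over local background was 2.99 and 2.98 against 5.77 and 5.22. When all pairs were split into 4 groups of about equal size by untreated score, 35.9% (34.4 to 37.5%) of those with the lowest scores were moved, 21.6% and 20% in the middle groups and 7.20% (6.40 to 8.08%) of those with the highest. Among untreated peaks in the top 10% of the list that had a partner, 37 of 2030 were moved (1.82%, 1.33 to 2.50%). The precision of a summit depends on the reads under it, and the part of peak strength in the movement of summits was not tested, because no reads per position were used here.

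An SBS was found within 50 bp of the untreated summit in 434 of 3079 moved pairs (14.1%, 12.9 to 15.4%) and of the dTAG-V1 summit in 83 (2.70%, 2.18 to 3.33%). Over all one-to-one pairs these shares were 19.7% and 15.9%. In windows 1 kb to either side of the summits of moved pairs the share was 2.17%, just below the interval at the dTAG-V1 summit. Of the 457 moved pairs with an SBS at one summit alone, 404 had it at the untreated summit (88.4%, exact interval 85.1 to 91.2%). In unmoved pairs, whose windows overlap almost entirely, the SBS shares were 32.3% and 32.2%. The 39 unmoved pairs with an SBS at one summit alone divided into 24 and 15.

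The CTCF motif showed the opposite order. It was found at the untreated summit in 103 moved pairs (3.35%, 2.77 to 4.04%) and at the dTAG-V1 summit in 439 (14.3%, 13.1 to 15.5%), against 14.9% and 18.8% over all one-to-one pairs and 1.10% in windows 1 kb away. Of the 494 moved pairs with a CTCF motif at one summit alone, 415 had it at the dTAG-V1 summit (84.0%, exact interval 80.5 to 87.1%). In unmoved pairs the shares were 18.5% and 18.6%. On each of the 23 chromosomes, moved pairs had more SBS at the untreated than at the dTAG-V1 summit and more CTCF motifs at the dTAG-V1 than at the untreated summit.

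**Figure D2:**
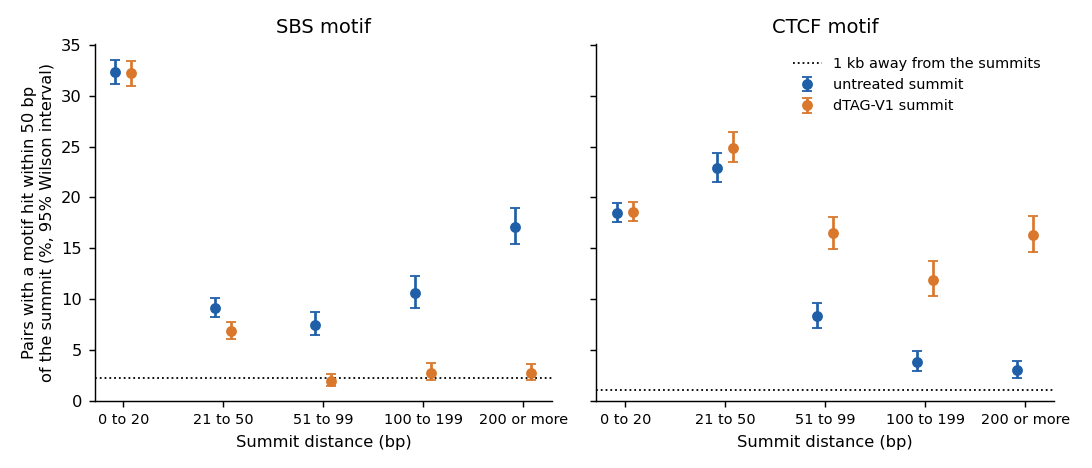
Share of one-to-one pairs with an SBS (left) or CTCF motif (right) within 50 bp of the untreated (blue) and dTAG-V1 (orange) summit, by summit distance, with 95% Wilson intervals and the level 1 kb away as a dotted line. Shares at the 2 summits coincide up to 20 bp, where both windows hold nearly the same sequence. They differ for the SBS from 21 to 50 bp on (9.12% against 6.85%). At 200 bp or more they reach 17.1% against 2.68% for the SBS and 2.98% against 16.3% for CTCF.

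The separation grew with distance. From 100 bp to under 200 bp an SBS lay at the untreated summit in 10.6% and at the dTAG-V1 summit in 2.71% of pairs, and at 200 bp or more in 17.1% and 2.68%. CTCF was at 3.76% and 11.9% in the shorter range and at 2.98% and 16.3% at 200 bp or more. Hits in moved pairs also clustered close to a summit. In the 20 bp to either side of the untreated summit, an SBS hit was centred in 4.51% and 4.38% of moved pairs, against 0.617% and 0.487% around the dTAG-V1 summit.

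**Figure D3:**
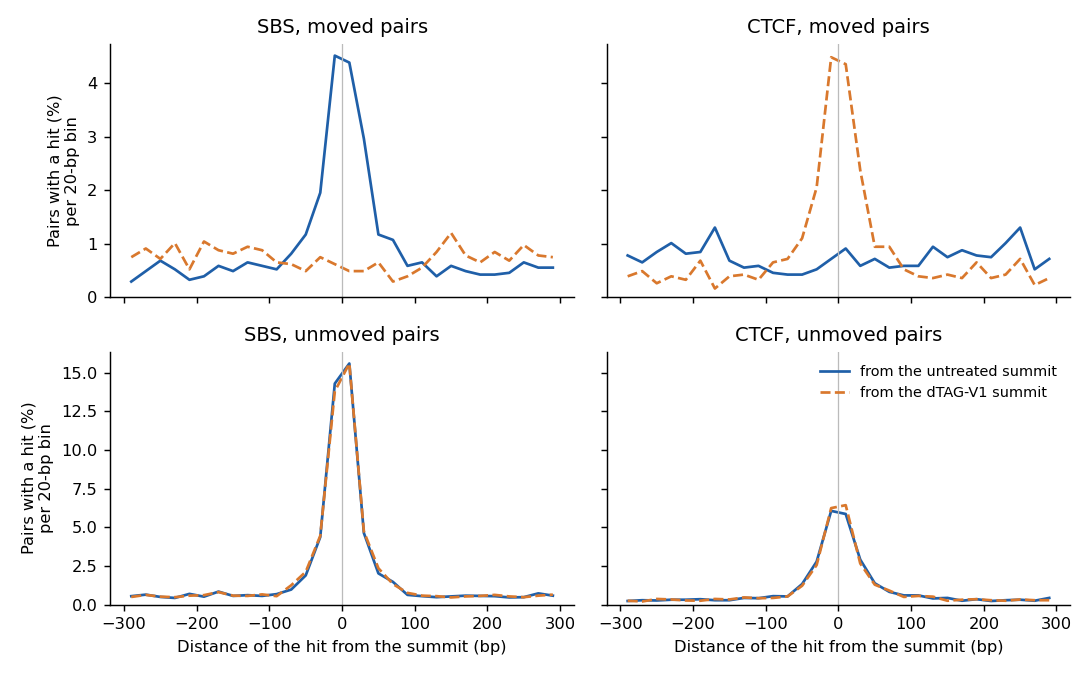
Share of pairs with the centre of an SBS (left) or CTCF (right) hit in each 20-bp bin around the untreated (solid blue) and dTAG-V1 (dashed orange) summit, for moved (top) and unmoved pairs (bottom; the vertical scales of the rows differ). In moved pairs the SBS curve rises at the untreated summit (4.51%) far more than at the dTAG-V1 summit (0.617%), and the CTCF curve does the reverse. In unmoved pairs the curves of both summits coincide, since those summits lie at most 20 bp apart.

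The SBS result depended on how the motif was written. With fixed SBS and CTCF consensus strings and at most 1 mismatch in place of the matrices, an SBS was found at 0.747% of untreated and 0.585% of dTAG-V1 summits of moved pairs, with overlapping intervals, whereas CTCF was found at 1.82% and 10.4%. Most moved pairs with an SBS by matrix therefore had no match to the fixed strings within 1 mismatch.

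Of the moved pairs, 60 were SBS-to-CTCF (1.95%, 1.52 to 2.50%) and 4 were of the reverse class, CTCF-to-SBS (0.130%, 0.0505 to 0.334%). Over all one-to-one pairs these shares were 0.632% and 0.0275%. Of the 64 pairs in either class, 93.8% were SBS-to-CTCF (exact interval 84.8 to 98.3%). Unmoved pairs held 0 of either among 6098, which allows a share of up to 0.0492% (3 counts of the total), but windows of 50 bp around summits 20 bp apart overlap almost entirely. The pairs at 21 to 99 bp, also outside the rule, held 32 SBS-to-CTCF pairs and 0 CTCF-to-SBS pairs (limit 0.0557%, likewise from 3 counts). In SBS-to-CTCF members the hits lay a median of 262 bp apart (quartiles 221 and 443 bp), and 18 of 60 lay at promoters (30.0%, 19.9 to 42.5%). Each summit lay inside the other peak in 30 of the 60, and at least 1 summit lay outside it in the others.

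Over all 60 the median score was 253 in the untreated and 178 in the dTAG-V1 list. The median ranks were 37.9% and 31.6% of the lists. Of the 60, 25 (41.7%) stood lower in the dTAG-V1 ranking, against 36.5% of all moved and 15.6% of unmoved pairs.

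The members named next were picked for a high untreated score, so that lower dTAG-V1 scores among them are no sign of the class as a whole. Among the 8 SBS-to-CTCF members with the highest untreated score, scores ran from 1277 to 3835 in the untreated and from 121 to 343 in the dTAG-V1 list, and the summits lay 103 to 779 bp apart. These 8 ranked from 2472 to 3535 in the untreated list and from 4755 to 16653 in the longer dTAG-V1 list. The strongest, at the promoter of the zinc-finger gene ZNF843 (chr16:31442703-31443255 untreated, chr16:31442792-31443392 dTAG-V1), had a score of 3835 and then 242, and a fold enrichment of 15.5 and then 4.51. Its SBS lay 3 bp from the untreated and 356 bp from the dTAG-V1 summit, and its CTCF site 364 bp and 5 bp from them.

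The pair at UBR2, a ubiquitin ligase of the N-degron pathway, lay at -16528 bp from the TSS and had scores of 2409 and 226 with summits 274 bp apart. The KRTAP13-1 region, printed whole above, had scores of 2097 and 121, and its summits were 103 bp apart. The pair at SUOX, which encodes mitochondrial sulfite oxidase, had the largest shift of the 8, at 779 bp. Its untreated summit lay 58 bp upstream of the SUOX TSS and 6 bp from an SBS, and its dTAG-V1 summit lay in the 3′ UTR of the neighbouring gene RAB5B, 41 bp from a CTCF site. The pair at BTRC, an F-box protein, had summits 233 bp apart, that at MDFI, an inhibitor of MyoD family factors, 306 bp, that at the long non-coding RNA LINC00466 167 bp, and that at PGF, a placental growth factor, 227 bp. In all 8 the SBS lay within 19 bp of the untreated summit.

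The 4 CTCF-to-SBS members were few and differed among themselves. The pair between ERAL1, a mitochondrial ribosome assembly GTPase, and FAM222B was among the strongest in both lists, with scores of 43269 and 7110. Its CTCF site lay 27 bp from the untreated and its SBS 1 bp from the dTAG-V1 summit. The pair at GTF3C6, a subunit of the polymerase III factor TFIIIC, had scores of 250 and 326, and its CTCF hit included the letters AAGATGGCG, which were also searched as the YY1 string. The pairs at NBN, a DNA repair gene, and near SLC32A1, a GABA transporter gene, had untreated scores of 85 and 118 and dTAG-V1 scores of 131 and 99.

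When both motifs were present anywhere in a moved region, the nearest SBS was usually on the untreated side. Among the 207 moved pairs with both an SBS and a CTCF hit within the joined peaks, the SBS was closer to the untreated summit in 163 (78.7%, exact interval 72.5 to 84.1%) and CTCF closer to the dTAG-V1 summit in 154 (74.4%, 67.9 to 80.2%). Both held in 125 pairs (60.4%, 53.4 to 67.1%) and neither in 15 (7.25%). SBS-to-CTCF pairs with both hits in the joined peaks are among the 207 and meet both conditions by definition. The median distance from the SBS was 37.0 bp to the untreated and 217 bp to the dTAG-V1 summit, and from CTCF 215 bp and 47.0 bp. Both motifs were present in 6.72% of moved (5.89 to 7.66%) and 8.13% of unmoved pairs (7.47 to 8.85%).

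Another class of members had an SBS at both summits. These 30 pairs were 0.974% of moved pairs, against 15.1% of all one-to-one and 31.9% of unmoved pairs. This contrast is tied to the rule, since the same SBS counts at both summits where these lie at most 20 bp apart. Their median scores were 46750 and 15544, and 24 of them (80.0%) lay at promoters. Unmoved pairs with an SBS at both summits had median scores of 18793 and 4109, and 63.0% of them lay at promoters. The pair at MRPL54 and APBA3 (chr19:3761599-3762926 untreated) had scores of 47545 and 18051. MRPL54 encodes a mitochondrial ribosomal protein. The untreated summit lay 39 bp upstream of the MRPL54 TSS and 1 bp from an SBS, and the dTAG-V1 summit, 915 bp away, lay 36 bp upstream of the APBA3 TSS and 5 bp from another. At RPLP2, a protein of the ribosomal stalk, scores were 74258 and 18415, the summits were 261 bp apart, and an SBS lay 29 bp and 42 bp from them. The zinc-finger genes ZNF568 and ZNF829 shared a pair with scores of 65724 and 13669, and ZNF436 had one with scores of 46239 and 20280. An SBS lay 5 bp and 37 bp from the summits of the first and 10 bp and 3 bp from those of the second.

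The ranks of the peaks within their lists differed between these classes. Rank is given as a percent of the list, with low values for high scores, and since the lists differ in length and in how replicates were combined, it is read only between classes. The 404 members with an SBS at the untreated summit alone had a median rank of 34.7% in the untreated and 56.4% in the dTAG-V1 list, and 64.4% of them stood lower in the dTAG-V1 ranking. The 415 members with CTCF at the dTAG-V1 summit alone had median ranks of 82.8% and 33.2%, and 12.8% of them stood lower. Over all one-to-one pairs, against which these are to be read, the median ranks were 48.0% and 27.8%, and among all moved pairs 65.6% and 55.9%. Of all moved pairs 36.5% stood lower in the dTAG-V1 ranking, and of unmoved pairs 15.6%. Unmoved pairs with CTCF at both summits had median ranks of 63.6% and 19.7%, and those with an SBS at both 6.72% and 3.97%.

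**Figure D4:**
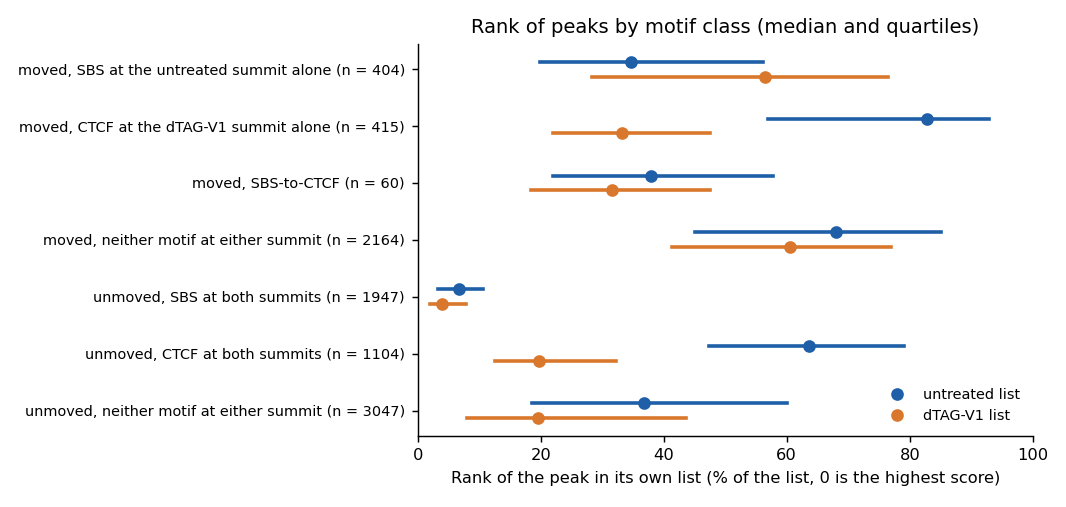
Rank of peaks within their own list, in percent with 0 for the highest score, as median (point) and quartiles (line) for 4 classes of moved and 3 of unmoved pairs, in the untreated (blue) and dTAG-V1 (orange) list. Members with an SBS at the untreated summit alone have medians of 34.7% and 56.4%, those with CTCF at the dTAG-V1 summit alone 82.8% and 33.2%, and all one-to-one pairs (not drawn) 48.0% and 27.8%.

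Against unmoved pairs, moved pairs held fewer of both motifs. The SBS share at the untreated summit was 18.2 points lower (difference -18.2, interval -19.9 to -16.5), and the CTCF share at the dTAG-V1 summit differed by -4.39 points (-5.94 to -2.79). Both depended on peak strength. When unmoved pairs were reweighted to the untreated scores of moved pairs, an alternative chosen after seeing the data, the SBS difference was 5.23 points in the other direction, and the CTCF difference was -19.8 points. Within the 4 groups by untreated score, the SBS share was higher in moved than in unmoved pairs in the lowest 3 (4.63% and 2.09%, 9.97% and 2.69%, 23.2% and 4.43%) and lower in the highest (48.1% and 67.5%). The CTCF difference at the dTAG-V1 summit was -27.6, -27.1 and -5.95 points in the lowest 3 and 5.77 points (2.83 to 9.86) in the highest, where the shares were 8.78% and 3.01%. The order of the summits within moved pairs was the same in each of the 4 groups, with an SBS at 4.63% and 1.31%, 9.97% and 2.27%, 23.2% and 2.74%, and 48.1% and 10.7% of untreated and dTAG-V1 summits from the lowest scores to the highest.

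Groups by width gave a different picture for each motif. Their limits were set at every 20% of the untreated widths of moved pairs and applied to unmoved pairs too. In the narrowest group, the SBS difference was 1.25 points (-0.791 to 3.57) and the CTCF difference -25.2 points (-29.3 to -20.8). In the widest group they were -23.7 points (-28.2 to -18.9) and 4.57 points (2.01 to 7.38). At promoters the SBS share was 12.7% in moved and 42.1% in unmoved pairs, and elsewhere 15.7% and 23.2%. CTCF at the dTAG-V1 summit was at 8.66% and 8.70% at promoters, a difference of -0.0425 points (-1.70 to 1.70), and at 20.8% and 27.9% elsewhere.

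Promoters, which were taken to reach from 2 kb before a TSS to 1 kb past it, held 1663 untreated and 1663 dTAG-V1 summits of moved pairs (54.0%, 52.2 to 55.8%), against 45.4% and 45.5% over all one-to-one pairs and 48.2% and 48.3% in unmoved pairs. The difference from unmoved pairs was 5.77 points (3.6 to 7.92) at the untreated and 5.75 at the dTAG-V1 summit. With 500 bp to either side of a TSS it was 2.03 (-0.113 to 4.19) and 0.329 points (-1.81 to 2.48), so that it was lost at both summits. It also turned with width, from 14.7 points (10.0 to 19.3) in the narrowest of the groups by width to -10.4 points (-14.9 to -6.07) in the widest. By score it was 18.5, 30.0 and 28.5 points in the lowest 3 groups and 0.118 points (-5.90 to 5.59) in the highest, and with reweighting to the scores of moved pairs it was 22.5 points at both summits. The summit changed its promoter class in few pairs, 18 leaving and 18 entering.

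Within promoters the dTAG-V1 summit lay farther from the TSS more often than the untreated one. In the 1645 moved pairs with both summits at promoters, the median distance to the nearest TSS was 143 bp at the untreated and 201 bp at the dTAG-V1 summit, and 708 (43.0%) against 449 (27.3%) summits lay within 100 bp of one. The untreated summit was the closer in 1018 of 1644 pairs with unequal distances (61.9%, exact interval 59.5 to 64.3%), and in 1318 of 2632 unmoved pairs (50.1%, 48.1 to 52.0%). The share was 63.1% without either motif (787 of 1247 pairs, 60.4 to 65.8%) and 55.2% with an SBS at the untreated summit (116 of 210, 48.2 to 62.1%), an interval that includes equal numbers. Neither direction of transcription was preferred, since the dTAG-V1 summit lay further downstream in 716 of 1467 pairs with the same nearest gene (48.8%, 46.2 to 51.4%).

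**Figure D5:**
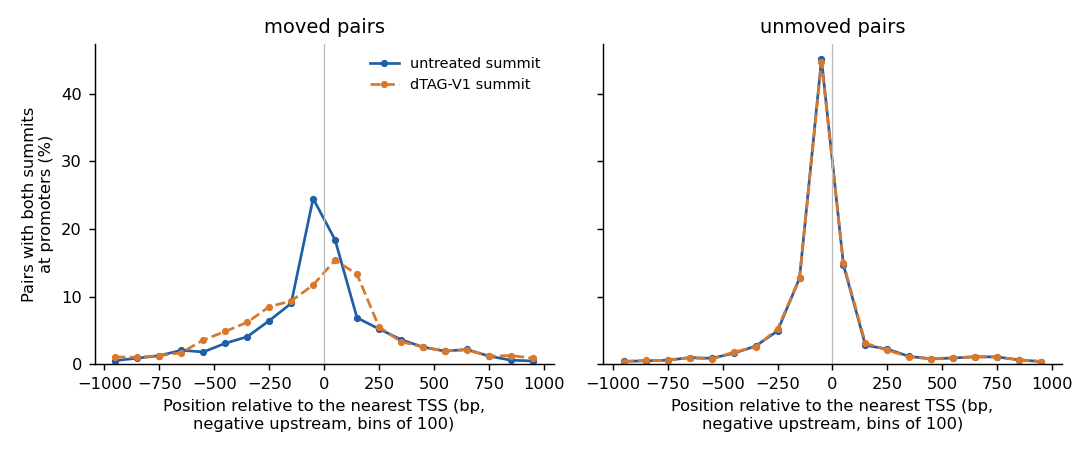
Share of pairs with both summits at promoters whose untreated (solid blue) or dTAG-V1 (dashed orange) summit lies in each 100-bp bin around the nearest TSS, for moved (left) and unmoved pairs (right). In moved pairs the bin just upstream of the TSS holds 24.5% of untreated and 11.7% of dTAG-V1 summits. The bin centred 150 bp downstream holds 6.87% and 13.3%. The curves of unmoved pairs coincide, since their summits lie at most 20 bp apart.

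The members with the longest shifts were chosen by the distance itself, and their positions are given as a description. At GJA1, the gene of the gap junction protein connexin 43, the untreated summit lay 40 bp downstream of a TSS and the dTAG-V1 summit 1740 bp away, 153 bp downstream of another TSS of the gene, with scores of 153 and 73. At CDC42BPA, a kinase gene, the summits were 1670 bp apart and G+C within 50 bp was 41.6% and 25.7%. GOLGA4, a golgin gene, had a shift of 1431 bp and scores of 70 and 57. The shift of 1348 bp at VARS2, the mitochondrial valyl-tRNA synthetase gene, was of the SBS-to-CTCF class. Its untreated summit lay in the 5′ UTR, 20 bp from an SBS, and its dTAG-V1 summit in intron 4, 2 bp from a CTCF site. The peaks (chr6:30914245-30915284 untreated, chr6:30915247-30915786 dTAG-V1) overlapped only at their ends, and neither summit lay inside the other peak. The fifth, at chr9:79446393-79448306, lay far from any TSS and was strong, with scores of 27212 and 3889 and an SBS 1 bp from the untreated summit and 1092 bp from the dTAG-V1 summit.

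Most moved pairs had neither motif. In 2164 (70.3%, 68.6 to 71.9%) no SBS or CTCF hit lay within 50 bp of either summit, against 61.5% of all one-to-one and 50.0% of unmoved pairs. Of the 2164, 1262 lay at promoters (58.3%), against 45.4% of all one-to-one pairs. The strongest lay at the promoters of MAP3K12, a kinase gene, and TARBP2, the gene of a Dicer partner, with scores of 72163 and 26995 and an SBS 110 bp from the untreated summit, outside the window. The next, at MRPL48, a mitochondrial ribosomal protein gene, had scores of 27194 and 4190, with the untreated summit 149 bp and the dTAG-V1 summit 3 bp downstream of the TSS, and an SBS 58 bp from the untreated summit. The other 3 by the same rule lay at chr6:28776225-28777300, chr1:145280704-145281552 and chr1:148522177-148523065, with untreated scores of 7775, 6859 and 6483.

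Base composition differed between the summits. Within 50 bp of a summit, moved pairs had a mean G+C content of 53.0% at the untreated and 49.3% at the dTAG-V1 summit, and it was lower at the dTAG-V1 summit in 1849 of 2960 pairs that differed (62.5%, exact interval 60.7 to 64.2%). The mean difference was -5.31 points in pairs at promoters and -1.87 points elsewhere, and -4.78 points in members with neither motif. In unmoved pairs, whose windows overlap almost entirely, both means were 53.8%. The mean number of CpG in the window was 4.49 and 3.55 in moved pairs.

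In moved pairs the ETS, YY1, SP/KLF and NRF1 strings also lay more often at the untreated summit, but the AP-1 and NFY strings did not clearly differ. The ETS string CCGGAAGT, searched on both strands within 50 bp, was at 68 untreated and 16 dTAG-V1 summits of moved pairs (2.21% and 0.520%), against 2.34% and 1.72% over all one-to-one pairs, 0.0996% 1 kb away and 3.93% of windows of that length at TSSs of protein-coding genes. No moved pair had it at both, so that 81.0% of the 84 had it at the untreated summit (exact interval 70.9 to 88.7%). The YY1 string AAGATGGCG was at 35 and 15 summits (1.14% and 0.487%), against 0.961% and 0.838% over all one-to-one pairs. The SP/KLF string GGGGCGGGG was at 62 and 30 (2.01% and 0.974%, over all pairs 1.81% and 1.55%) and the NRF1 string GCGCATGCG at 13 and 2 (0.422% and 0.0650%, over all pairs 0.275% and 0.233%). At the TSSs of 19625 protein-coding genes the YY1 string was in 441 windows, the SP/KLF string in 9.22% and the NRF1 string in 1.18%. The AP-1 string TGACTCA was at 58 and 49 summits (1.88% and 1.59%), against 1.94% and 1.86% over all pairs and 1.46% 1 kb away. The NFY string CCAAT was at 349 and 375 (11.3% and 12.2%), against 13.6% and 14.0% over all pairs and 12.8% 1 kb away.

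All 8-letter words were also ranked by their difference between the 2 summits of moved pairs. The words were picked by that difference, so that the tilt of their counts is given as a description only. The words most tilted to the untreated summit were ATTCTGGG, in 64 untreated and 7 dTAG-V1 windows, TCCCAGAA, in 89 and 22, TCCCAGCA, in 110 and 37, and ACTTCCGG, in 68 and 16. The first and the second are in the printed SBS sites of BTRC and UBR2 or their reverse complements, and the fourth is the reverse complement of the ETS string. The words most tilted to the dTAG-V1 summit were CCACTAGA, in 9 and 51 windows, AGGTGGCA, in 9 and 44, ACTAGATG, in 2 and 28, and ACTAGAGG, in 7 and 37. CCACTAGA and ACTAGAGG are part of the CTCF site of BTRC. Words rich in A and T, AAAAACAA (29 and 71) and AGATTTAT (12 and 43), were also among the first 10 on that side. Among the first 10 on the untreated side were also CCCGCCCC (113 and 48) and CCCCGCCC (125 and 58). At untreated summits, ATTCTGGG was in 2.08% of moved and 3.35% of unmoved pairs, and CCACTAGA in 0.292% and 1.89%.

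By gene, 1660 of the 6593 protein-coding genes with a pair at the promoter had a moved pair there (25.2%), and the gene lists lay at or below that share. For mitochondrial ribosomal proteins it was 13 of 68 genes (19.1%, 11.5 to 30.0%), for respiratory complex I 9 of 40 (22.5%), for complexes II to V 9 of 42 (21.4%) and for the TIMM and TOMM genes of mitochondrial protein import 5 of 22 (22.7%). It was 9 of 75 for cytosolic ribosomal proteins (12%, 6.44 to 21.3%), 49 of 315 for ZNF and ZFP zinc-finger genes (15.6%, 12 to 20%), 4 of 32 for proteasome subunits (12.5%) and 4 of 24 for aminoacyl-tRNA synthetases (16.7%). The intervals of the cytosolic ribosomal protein and zinc-finger lists lay below the share of all genes, and those of the other 6 lists included it. The lists were not matched for peak score, and the share of moved pairs ran from 35.9% at the lowest to 7.20% at the highest untreated scores. Genes at a shared promoter count the same pair. Unmoved pairs were at the promoters of 47.8% of all genes with a pair. The share was 57.4% for mitochondrial ribosomal proteins, 45.0% for complex I, 54.8% for complexes II to V and 40.9% for mitochondrial import. For cytosolic ribosomal proteins it was 50.7%, for zinc-finger genes 64.8%, for proteasome subunits 68.8% and for aminoacyl-tRNA synthetases 62.5%.

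Members in these lists shifted in different ways. They were picked for a high untreated score, so that lower dTAG-V1 scores among them are no sign of the lists as a whole. At COX11, needed for the assembly of cytochrome c oxidase, scores were 992 and 73 and an SBS lay 3 bp from the untreated and 195 bp from the dTAG-V1 summit. The latter summit lay in intron 1 of the neighbouring gene STXBP4. At ATP5PD, a subunit of ATP synthase, scores were 643 and 88, and the summit went from 9 bp upstream to 580 bp downstream of the TSS. At COX10, also an assembly factor of that oxidase, scores were 467 and 147 and a CTCF site lay 169 bp and 43 bp from the summits. At NDUFB11 and NDUFB1, subunits of complex I, untreated scores were 245 and 350 and dTAG-V1 scores 175 and 207. The summits of these pairs lay 339 and 150 bp apart. The NDUFB11 pair lay at a promoter shared with RBM10, whose TSS was the nearest to both summits. At TIMM17B, a subunit of the inner membrane translocase, scores were 305 and 79 and both an SBS (14 bp) and a CTCF site (29 bp) lay at the dTAG-V1 summit. At the proteasome genes PSMB7 and PSMD14 untreated scores were 318 and 219 and dTAG-V1 scores 373 and 55.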

How the data were processed

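ZNF143 ChIP-seq peaks of 4 untreated and 4 dTAG-V1 samples were used as the authors deposited them, 1 list per condition. According to the methods, reads were mapped to hg38 with bwa, duplicates were removed with Picard and narrow peaks were called with MACS2 at a q-value of 0.01, with no control library named. Peaks found in each untreated replicate, or in any dTAG-V1 replicate, were kept, so that the lists differ in stringency and in length. The untreated peaks carry DMSO in their names although the labels give no vehicle. The score, the fold enrichment (a ratio to local background), the −log10 q-value and the summit of each deposited peak are the authors' values. The lists hold no columns per sample, so that 0 such columns were left unused, and depth is unknown. Shares of regions are given with intervals for counting error only.

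Pairs were formed at a minimum overlap of 1 bp, and several partners were left out. Matrices for CTCF, SBS1 and SBS2 were learned within 100 bp of the summits of the 25893 peaks in only 1 list, which hold no member. They were seeded with a consensus (2 mismatches allowed) and refined over 10 iterations with sites at p 1e-06 and a pseudocount of 0.8. The most frequent letters were TTCCCAGCATCCCTTGCA for SBS1, which had moved from its starting consensus, and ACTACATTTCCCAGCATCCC for SBS2. The 2 were therefore counted together as SBS. A hit had p 1e-05 or less under the base frequencies of the genome and its centre within 50 bp of a summit. Promoters and features came from GENCODE release 44, protein-coding and lncRNA transcripts. Shares have Wilson, differences Newcombe and divisions of pairs exact Clopper-Pearson intervals, all at 95%. The tools were pysam 0.24.0, numba 0.67.0, scipy 1.17.1, pandas 2.3.3 and numpy 2.4.6 under Python 3.11.15, and pairing and motif search were tested on simulated data.

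The members, lists and comparisons were chosen with earlier results of these data known. Named members were the 8 SBS-to-CTCF pairs with the highest untreated score, the CTCF-to-SBS pairs with the highest dTAG-V1 score, the 5 longest shifts, the 5 strongest with neither motif, and up to 4 per gene list, of which some are printed. ENSG identifiers with no symbol are given by coordinates. Alternatives were the hit p, the window, a fixed consensus, other matrices, a q-value of 0.001, a 50% overlap, a 150 bp distance, other promoter definitions and reweighting.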

Additional observations from a re-analysis of the deposited data

How the results depend on the processing

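No paired analysis was possible because each list pools its samples and holds no values per replicate, and for the same reason no replicate could be left out. In all 11 settings that gave motif shares, the SBS was more frequent at the untreated and CTCF at the dTAG-V1 summit of moved pairs, and SBS-to-CTCF exceeded CTCF-to-SBS, by at least 2 times. With the fixed consensus, however, the intervals of the SBS shares overlapped, as did those of the classes (0.0505 to 0.334% and 0.0178 to 0.237%). Of 40 differences between moved and unmoved pairs under alternatives, 39 kept their sign. The exception was chosen after seeing the data: with unmoved pairs reweighted to the untreated scores, the SBS difference turned from -18.2 to 5.23 points, the CTCF difference was -19.8 and the promoter differences were 22.5 and 22.5. Reweighting to widths gave -15.2 points for the SBS.

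The levels of the shares depended on the search. In the order SBS at the untreated and dTAG-V1 summit, CTCF at the untreated and dTAG-V1 summit, SBS-to-CTCF and CTCF-to-SBS, moved pairs held 26.2%, 8.18%, 7.60%, 18.7%, 4.09% and 0.390% at hit p 5e-05, 4.94%, 0.650%, 1.43%, 9.65%, 0.520% and 0.0325% at 1e-06, and 9.91%, 1.27%, 1.92%, 10.5%, 1.17% and 0.0325% within 25 bp. The first 4 were 16.9%, 4.87%, 5.72% and 17.4% within 100 bp. With the fixed consensus they were 0.747%, 0.585%, 1.82%, 10.4%, 0.130% and 0.0650%. Matrices from odd-numbered autosomes gave the SBS at 18.1% and 4.09%. The SBS difference was -15.4 points at 5e-05 and -21.3 with those matrices.

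With an overlap of 50% of each peak there were 2047 moved pairs, the SBS was at 3.37% of dTAG-V1 summits, and the differences were -19.9 points for the SBS and -2.02 for CTCF. At 150 bp or more the SBS was at 15.4% of untreated and CTCF at 15.9% of dTAG-V1 summits, the CTCF difference was -2.78 points and 67.5% of pairs with both motifs had the SBS nearer the untreated and CTCF nearer the dTAG-V1 summit. With protein-coding TSSs alone the promoter difference at the dTAG-V1 summit was 3.49 points, and with 500 bp around a TSS the differences were 2.03 and 0.329. Keeping pairs with each summit inside the other peak, also chosen after seeing the data, left 1853 pairs with an SBS at 3.72% of dTAG-V1 summits. The other 67 values under alternatives stayed within the interval of the reported value, or within 1.5 times for a count. The cause of these changes was not tested. Depth, which is unknown here, limits the precision of weak summits.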

Other observations

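Overlaps outside the one-to-one pairs numbered 466, and involved 385 untreated and 312 dTAG-V1 peaks, whose summits were not compared. Keeping the partner with the largest overlap gave 3202 moved pairs in place of 3079.

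Pairs with summits 21 to 99 bp apart lay between the unmoved and moved pairs in summit distance, but showed the same order of the SBS and CTCF motifs as moved pairs. Of 279 with an SBS at one summit alone, 234 had it at the untreated summit (83.9%, exact interval 79.0 to 88.0%). Of 420 with CTCF at one summit alone, 326 had it at the dTAG-V1 summit (77.6%, 73.3 to 81.5%). The ETS string was at 116 untreated and 79 dTAG-V1 summits of these pairs and the SP/KLF string at 65 and 58. The YY1 string, at 34 and 38, and the NRF1 string, at 9 and 13, did not keep the order seen in moved pairs. The untreated summit was closer to the nearest TSS in 57.2% of promoter pairs (55.0 to 59.4%). G+C was lower at the dTAG-V1 summit in 54.6% of pairs that differed (53.2 to 56.0%). At these distances the windows of both summits still overlap in part.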
